A study of Mus musculus with 4 samples.

Results

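Vitamin D handling in the kidney was followed through 7 genes of 31053 measured: Cyp24a1, Cyp27b1, Vdr, Rxra, Lrp2, Cubn and Gc. They were taken by gene symbol from the deposited feature lists and not by a cut on their values. Earlier results of these data were known when they were chosen. Each was found once. Their levels were read in the cell types of the mouse kidney, and in segments of the proximal tubule, before and after a single dose of the phosphate-regulating hormone FGF23.

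Kidney cells of C57BL/6 mice aged 10 weeks were profiled by droplet single-cell RNA sequencing with 10x Genomics 3′ chemistry, version V3. Recombinant human FGF23 was injected intraperitoneally at 10 µg per mouse in 3 groups, whose kidneys were collected after 1, 4 or 12 h. In the remaining group, at 0 h, the dose was 0 µg. Wherever 4 values follow each other without times, they are those of the 0, 1, 4 and 12 h libraries in that order, and 3 log2 ratios are those of 1, 4 and 12 h to 0 h. Kidneys of males and females were pooled before digestion, so that each library holds cells of both sexes, and the labels name no genetic change in any group. Its label places the control at 0 h, but the deposited matrix of that sample is named as saline at 1 h. Whether its mice were injected was not settled, and it is called the 0 h library here. There was 1 library per group. No difference between times therefore has a replicate check, no test across samples was possible, and every interval below is a 95% interval for counting error alone. The comparisons at 1, 4 and 12 h all share the 0 h library.

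Vitamin D becomes a hormone by hydroxylation in the liver and then in the kidney. The proximal tubule retrieves the circulating form bound to its carrier (Gc) through the endocytic receptors megalin (Lrp2) and cubilin (Cubn). The mitochondrial 1α-hydroxylase Cyp27b1 makes the active hormone, the 24-hydroxylase Cyp24a1 starts its breakdown, and the hormone acts through the vitamin D receptor (Vdr) bound to a retinoid X receptor such as Rxra. FGF23 is known as a hormone that lowers active vitamin D as well as phosphate reabsorption.

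On the mouse build GRCm38, in the GENCODE vM21 annotation, Cyp24a1 (ENSMUSG00000038567) lies on the minus strand at chr2:170482708-170497145 and overlaps Pfdn4 on the other strand. Cyp27b1 (ENSMUSG00000006724) lies on the plus strand at chr10:127048250-127053006. Vdr (ENSMUSG00000022479) spans chr15:97854425-97910630 on the minus strand, and Rxra (ENSMUSG00000015846) spans chr2:27676440-27762957 on the plus strand. The long minus-strand genes of the uptake receptors are Lrp2 (ENSMUSG00000027070) at chr2:69424340-69586065 and Cubn (ENSMUSG00000026726) at chr2:13276338-13491813, which overlaps Gm13270 on the other strand. Gc (ENSMUSG00000035540) lies on the minus strand at chr5:89417522-89457898. These positions hold only if the authors' annotation placed the genes alike, and reads of Cyp24a1 and Cubn are separable from their overlapping neighbours only if strand was used in counting, which is not given in the sources used here.

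Promoter windows are shown for the activating enzyme and the receptor, whose levels moved in opposite directions after FGF23. Each window is the 250 bases before a RefSeq transcript start (GRCm38.p6), written 5′ to 3′ on the gene's own strand. The Cyp27b1 window is chr10:127047996-127048245 on the plus strand and has 54.4% G and C. The Vdr window is chr15:97908297-97908546 on the minus strand, has 61.2% G and C, and overlaps an exon of another Vdr transcript. Capitals mark a match to a hexamer that vitamin D receptor elements are built from (the 4 forms are spelled out with their shares after the windows), searched on both strands.
Cyp27b1: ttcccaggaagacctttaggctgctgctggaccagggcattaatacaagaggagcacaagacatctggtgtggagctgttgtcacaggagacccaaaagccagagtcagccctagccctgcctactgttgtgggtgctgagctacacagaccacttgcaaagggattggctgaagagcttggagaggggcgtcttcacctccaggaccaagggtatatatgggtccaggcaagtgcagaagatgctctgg
Vdr: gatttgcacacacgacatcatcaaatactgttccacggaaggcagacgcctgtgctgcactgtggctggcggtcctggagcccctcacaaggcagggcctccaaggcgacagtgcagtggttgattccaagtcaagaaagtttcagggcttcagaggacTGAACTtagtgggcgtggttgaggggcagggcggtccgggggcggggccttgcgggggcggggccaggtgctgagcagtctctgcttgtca
The Cyp27b1 window held 0 matches. The Vdr window held 1, AGTTCA on the opposite strand, printed as TGAACT, whose first base lies 91 bases before the start. Of the 2 Rxra windows, 1 held 3 matches and the other 0. The Cubn window held 1, and those of Lrp2 and Gc held 0. No window was available for Cyp24a1. Of 32851 RefSeq windows of this length, 38.6% held at least 1 of the 4 hexamers, so a match is common. By hexamer the shares were 14.0% for AGGTCA, 11.8% for AGTTCA, 11.6% for GGGTCA and 8.85% for GGTTCA. None of the windows found for Cyp27b1, Vdr, Rxra, Lrp2, Cubn and Gc held a direct repeat of 2 hexamers with 3 bases between them, an arrangement present in 0.0396% of all windows. These are matches of letters and do not mark sites of binding.

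The 4 libraries held 12245 to 13813 barcodes and 139675666 to 158838728 unique molecular identifiers (UMIs, each standing for 1 captured RNA molecule). After filters and removal of doublet calls, 8822 to 10215 cells remained per library, with median depths of 8801 to 11153.5 UMIs. Barcode sequences found in more than 1 library numbered 279 in all, and 36 to 57 for any pair. Cell names were rebuilt here from marker genes, with naming thresholds set after the clusters had been seen, so they carry the ending "-like". Proximal tubule (PT)-like cells numbered 6255 to 7264 per library, and their 7 markers were all highest in that class at 0 h. Segment names were given to 13 of the 18 PT-like clusters. The S1-like cells (2012 to 2437 per library) stand for the early convoluted part, the S2-like cells (2062 to 2488) for the middle, and the S3-like cells (152 to 335) for the late straight part. The 5 remaining clusters, 1544 to 2091 cells per library, mixed markers of segments or showed too few, and are given as PT-like cells with no segment, which made up 22.4% of cells at 0 h and 16.2% at 12 h. Levels are CPM, the UMIs of a gene scaled to a common total of UMIs for each cell population and library.

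Cyp24a1, which begins the breakdown of active vitamin D, stood higher in PT-like cells of all 3 FGF23 libraries than at 0 h, and highest at 4 h. It was counted with 4397, 21053, 41624 and 26595 UMIs at 0, 1, 4 and 12 h. These are 50.1, 232, 420.4 and 329 CPM. Relative to 0 h the level was 4.63-fold, 8.39-fold and 6.56-fold higher. In female-called cells alone, those whose Xist and Y-linked transcripts gave a female call, it was 4.35-fold, 5.28-fold and 4.29-fold higher, from 93.8 CPM at 0 h. In male-called cells it was 4.79-fold, 10.8-fold and 8.69-fold higher, from 39.0 CPM at 0 h. On the log2 scale the ratios of all PT-like cells were 2.21 (interval 2.16 to 2.26), 3.07 (3.02 to 3.11) and 2.71 (2.67 to 2.76). For scale, 0.835% of 13650 genes with at least 20 UMIs were 2-fold or more higher in PT-like cells at 1 h, 3.02% of 13728 at 4 h and 2.92% of 13678 at 12 h. The other direction held 1.54%, 2.96% and 2.84% of these genes.

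Most Cyp24a1 molecules of every library came from the proximal tubule. PT-like cells held 97.4%, 97.3%, 98.7% and 98.2% of the Cyp24a1 UMIs. Within the tubule the weight moved along the segments. S1-like cells carried 65.0%, 69.1%, 53.4% and 38.9% of the UMIs. The share of S2-like cells was 16.4%, 14.4%, 22.8% and 29.4% in the same order, and that of PT-like cells with no segment was 16.0%, 13.7%, 22.3% and 29.7%. PT-like cells made up 66.9% to 71.1% of all cells, and held 87771741 of the 105624011 UMIs of all genes at 0 h. S1-like cells made up 22.2% to 23.9% of all cells throughout, and S2-like cells 22.1% to 25.4%.

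The segments also differed in level and in timing. In S1-like cells Cyp24a1 stood at 135, 639, 809 and 439.7 CPM, a log2 ratio to 0 h of 2.24 (2.18 to 2.30), 2.58 (2.53 to 2.64) and 1.70 (1.64 to 1.76). In S2-like cells it stood at 29.3, 103, 307 and 286 CPM, with log2 ratios of 1.82 (1.70 to 1.94), 3.39 (3.28 to 3.50) and 3.29 (3.18 to 3.40). Thus S1-like cells were above S2-like cells in every library, while the larger ratios at 4 and 12 h were those of S2-like cells. PT-like cells with no segment had 20.3, 86.0, 274 and 317 CPM. S3-like cells were lowest, with 0.561, 4.38, 17.0 and 11.1 CPM from 3, 12, 96 and 42 UMIs.

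Between 4 and 12 h the segments parted. The log2 ratio of 12 h to 4 h was -0.88 (-0.91 to -0.85) in S1-like cells, -0.10 (-0.14 to -0.06) in S2-like cells, -0.61 (-1.17 to -0.07) in S3-like cells and 0.21 (0.17 to 0.25) in those with no segment. By CPM alone, all 18 PT-like clusters had more Cyp24a1 at 1, 4 and 12 h than at 0 h, and more at 4 h than at 1 h. The intervals of 0 and 1 h overlapped in the S3-like clusters, with 2 and 5 UMIs and 1 and 7 UMIs. Those of 1 and 4 h overlapped in an S1-like cluster led by Ttr (727 and 747 CPM) and the S3-like cluster led by Slc7a12. From 4 to 12 h the level was lower in 5 of 5 S1-like clusters, 3 of 6 S2-like clusters, 2 of 2 S3-like clusters and 1 of 5 with no segment (1 of 4 without a cluster of 12 cells at 12 h). These counts include differences within counting error. The intervals of 4 and 12 h overlapped in both S2-like clusters led by Ttr (317 then 314 CPM, and 151 then 147) and in both S3-like clusters. They also overlapped in the Cyp4a14-led cluster with no segment, which was higher at 12 h (368 then 380 CPM). An S1-like cluster led by Slc5a2, the glucose transporter of the early tubule, had 151, 702, 886 and 496 CPM. By contrast an S2-like cluster led by Ugt2b37, a glucuronosyltransferase gene, had 10.0, 22.4, 168 and 198 CPM. The highest S2-like cluster, led by the carboxylesterase gene Ces1g, reached 70.3, 208, 598 and 489 CPM. The S2-like value between 4 and 12 h is small and turned to 0.091 when segments were assigned by the highest marker level alone, and to 0.37 in female-called cells. Levels of markers moved as well: the summed S1 markers in S1-like cells were 6826, 6331, 5554 and 4587 CPM, and their part in these values was not tested.

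**Figure D1:**
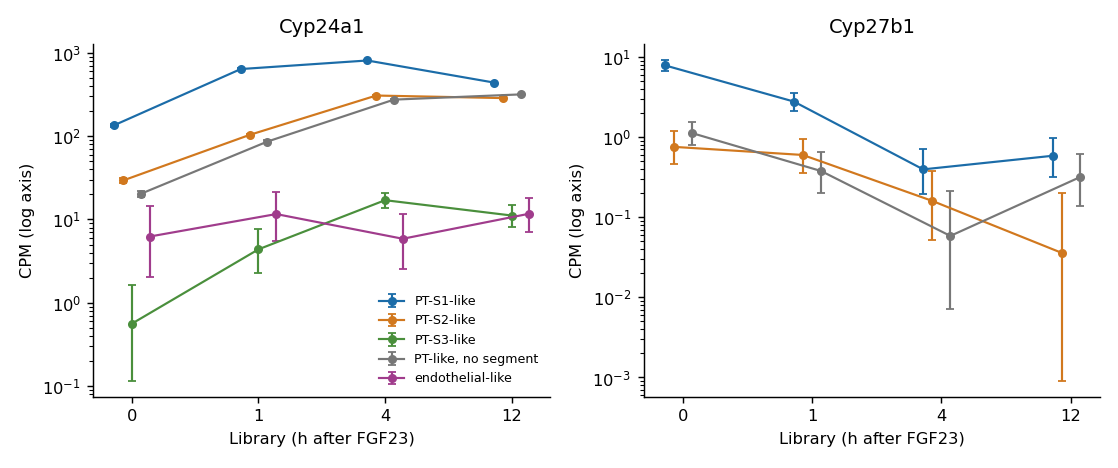
Levels of Cyp24a1 and Cyp27b1 in CPM (log axes) against the library in hours after FGF23. Lines are S1-, S2- and S3-like cells, PT-like cells with no segment, and endothelial-like cells. A population without a UMI in any library is not drawn. Points are single libraries and bars are exact Poisson 95% intervals. Cyp24a1 in S1-like cells runs from 135 CPM at 0 h to 809 at 4 h, while Cyp27b1 in the same cells runs from 7.88 to 0.395 CPM.

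**Figure D2:**
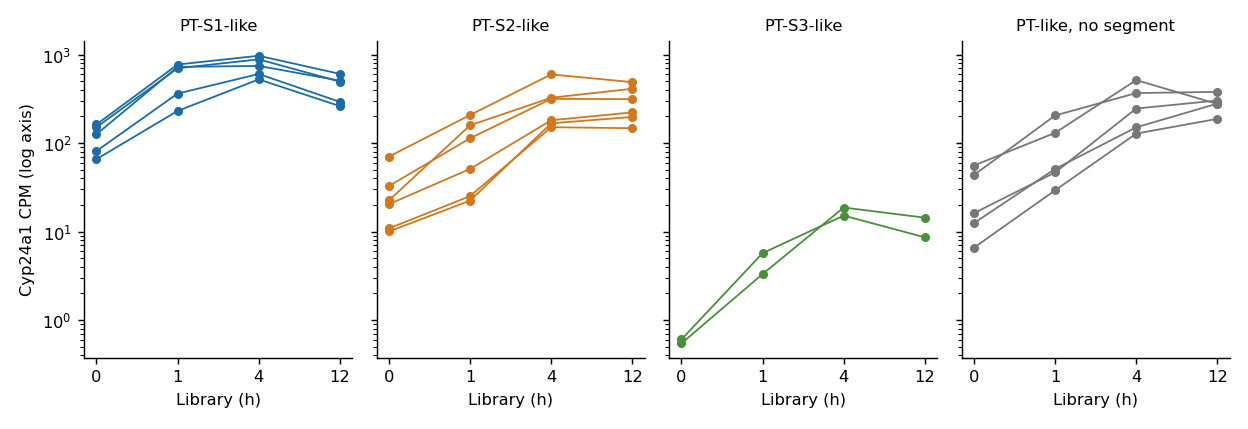
Cyp24a1 in CPM (log axes) in each of the 18 PT-like clusters, by segment panel and library; 1 line is 1 cluster. Every line is higher at 1, 4 and 12 h than at 0 h, though for S3-like clusters the counting intervals of 0 and 1 h overlap. The 5 S1-like lines all turn down between 4 and 12 h.

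More cells contained the transcript, and cells that contained it held more of it. Since deeper cells show a gene more often, each cell was thinned to 2000 UMIs and shallower cells were left out, which kept 6310, 6141, 7137 and 5995 PT-like cells of 6561, 6255, 7264 and 6360. On that footing 20.6%, 60.8%, 71.2% and 50.3% of S1-like cells had a Cyp24a1 UMI, and 44.0%, 82.2%, 91.7% and 77.6% without thinning. For S2-like cells the thinned shares were 4.42%, 12.0%, 33.8% and 35.2%, and the unthinned ones 12.4%, 27.7%, 59.2% and 65.7%. Endothelial-like cells, taken as a class that should lack the gene, gave thinned shares of 1.01%, 2.86%, 1.59% and 2.55%, at a median depth of 2230 to 2434 UMIs against 10851.5 to 13082 in PT-like cells. The thinned shares of S3-like cells were 0%, 0.667%, 3.87% and 1.42%. They rest on 321, 150, 284 and 212 cells. At 0, 1 and 12 h they lie below those of endothelial-like cells, so the gene did not stand above that class there.

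The number of copies per cell differed as well. Of thinned S1-like cells, 0.157%, 5.26%, 5.42% and 1.85% held 5 or more Cyp24a1 UMIs.

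Outside PT-like cells most Cyp24a1 UMIs lay in cells that were given no class. These unnamed cells held 78, 512, 458 and 328 UMIs. Of them 43, 357, 264 and 173 came from a small cluster led by Ren1 (renin) and C3 (complement), at 31.3, 174, 146 and 124 CPM. That cluster also held Lrp2, and is described further with Gc.

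Among the named classes, DCT/CNT-like cells, those of the distal convoluted and connecting tubule, had 6, 25, 38 and 43 UMIs of Cyp24a1, or 1.19, 4.35, 4.86 and 6.73 CPM. From 4 to 12 h their log2 ratio of 0.47 had an interval of -0.19 to 1.14, while PT-like cells were lower at 12 h, with a log2 ratio of -0.36 (-0.38 to -0.33). The TAL-like cells of the thick ascending limb had 1.60, 2.56, 3.91 and 4.49 CPM from 5, 9, 14 and 17 UMIs. PC-like cells, the principal cells of the collecting duct, had 0.608, 3.34, 1.99 and 11.4 CPM from 1, 4, 9 and 24 UMIs. The highest values of these 3 classes were at 12 h, not at 4 h as in PT-like cells, though the intervals of 4 and 12 h overlapped in DCT/CNT-like and TAL-like cells. The highest level in any other named class was 23.9 CPM, in neutrophil-like cells at 1 h, from 15 UMIs.

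To compare these levels with free RNA from the proximal tubule, the gene was also set against Lrp2, which belongs there. Per 100 Lrp2 UMIs there were 4.54, 19.9, 39.7 and 28.2 of Cyp24a1 in PT-like cells, 6.67, 20.7, 31.4 and 30.9 in DCT/CNT-like cells and 12.2, 32.1, 30.4 and 34.0 in TAL-like cells. The intervals of these ratios in DCT/CNT-like and TAL-like cells included the PT-like value of the same library. Among the other named classes and the single DCT/CNT-like clusters, 5 values lay above the PT-like value with intervals that did not include it. They were 20 (5.98 to 53.2) at 0 h in endothelial-like cells, 40.0 (21.8 to 70.5) at 1 h in the DCT/CNT-like cluster led by Slc12a3 and 107 (48.2 to 240) at 1 h in neutrophil-like cells. At 12 h they were 49.0 (28.7 to 81.4) in PC-like and 57.7 (28.4 to 113) in macrophage-like cells. These rest on 5 to 24 Cyp24a1 UMIs. Below it lay 2.78 (0.068 to 16.5) in IC-like (intercalated) cells and, by a narrow margin of the interval, 9.21 (3.58 to 19.9) in the DCT/CNT-like cluster led by S100g, both at 1 h. The cluster led by Ren1 and C3 had 5.50, 22.0, 23.8 and 19.6, and lay below PT-like cells at 4 h (20.8 to 27.3) and 12 h (16.6 to 23.1). Whether free RNA accounts for these levels was not tested.

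Cyp27b1, the enzyme that makes active vitamin D, was lower in the PT-like cells of all 3 FGF23 libraries, with its lowest value at 4 h. Its PT-like UMIs numbered 230, 96, 18 and 23, or 2.62, 1.06, 0.182 and 0.284 CPM. These levels are 2.48-fold, 14.4-fold and 9.22-fold lower than at 0 h. The log2 ratios were -1.31 (-1.67 to -0.96), -3.85 (-4.63 to -3.16) and -3.21 (-3.89 to -2.58). At 1 h the ratio was -2.43 in female-called and -0.71 in male-called cells. Between 4 and 12 h the log2 ratio of 0.64 had an interval of -0.31 to 1.62, so no return was detectable over all PT-like cells at this depth. In PT-like cells with no segment, 2 UMIs at 4 h and 8 at 12 h gave a log2 ratio of 2.43 (0.11 to 5.71), and in S1-like cells it was 0.56 (-0.68 to 1.85).

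The gene was found almost only in the proximal tubule, and mainly in S1-like cells. PT-like cells held 98.3% of its UMIs at 0 h and 97.0% at 1 h, and 100% at both 4 and 12 h. S1-like cells held 73.1%, 65.7%, 61.1% and 60.9%. In S1-like cells the 171, 65, 11 and 14 UMIs gave 7.88, 2.77, 0.395 and 0.584 CPM, which is 2.84-fold, 19.9-fold and 13.5-fold lower. The log2 ratios were -1.51 (-1.94 to -1.09), -4.32 (-5.35 to -3.44) and -3.75 (-4.66 to -2.97). S2-like cells had 19, 18, 5 and 1 UMIs. At 1 h their log2 ratio was -0.34 with an interval of -1.35 to 0.67, so a change at 1 h was not detectable there. S3-like cells had 0 UMIs in every library, which allows up to 0.561 CPM at 0 h and 1.09 CPM at 1 h. Outside PT-like cells, the named classes held 1 UMI in TAL-like and 1 in T/NK-like cells, both at 0 h, and 0 elsewhere.

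Few cells showed the gene at any time. A Cyp27b1 UMI was found in 6.66% (5.62 to 7.82), 2.88% (2.20 to 3.71), 0.451% (0.226 to 0.806) and 0.622% (0.341 to 1.04) of S1-like cells. For all PT-like cells the shares were 2.87%, 1.37%, 0.248% and 0.362%, and after thinning 0.650%, 0.277%, 0.0420% and 0.0667%. Endothelial-like cells had 0 of 323, 337, 527 and 682 cells with a UMI, which allows shares of up to 0.929%, 0.890%, 0.569% and 0.440%. These limits are set by the number of cells and their lower depth, and give no background level.

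Both enzymes were found in the same S1-like cells. Among S1-like cells thinned for Cyp24a1, a Cyp24a1 UMI was found in 25.5% of the 137 cells with Cyp27b1 at 0 h (18.5 to 33.7) and in 20.3% of those without it (18.4 to 22.2). At 1 h the shares were 69.0% of 58 cells (55.5 to 80.5) and 60.5% (58.3 to 62.7). Only 11 such cells remained at 4 h and 14 at 12 h, with shares of 81.8% and 57.1%. The cells without it had 71.1% at 4 h and 50.2% at 12 h. In all 4 libraries the share was higher in the cells with Cyp27b1, and the intervals of the cells with and without it overlap. The difference was not tested.

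Vdr, the receptor for active vitamin D, was detected along the whole tubule, and its levels rank DCT/CNT-like cells first. At 0 h they were 236 CPM in DCT/CNT-like, 97.9 in IC-like, 93.3 in PT-like, 76.6 in PC-like, 56.6 in TAL-like and 27.4 in endothelial-like cells. The intervals of neighbours in this order overlapped or nearly touched from IC-like (80.8 to 118) over PT-like (91.2 to 95.3) and PC-like (63.8 to 91.2) to TAL-like cells (48.6 to 65.6). The 4 immune classes stayed at 12.8 CPM or less. PT-like cells, the largest class, held 80.2% to 82.2% of Vdr UMIs, and DCT/CNT-like cells 11.9% to 15.3%. For scale, PT-like cells held 87771741 of the 105624011 UMIs of all genes at 0 h, and 80953993 of 102751123 at 12 h.

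After FGF23 the receptor was higher in the PT-like and DCT/CNT-like classes. In PT-like cells Vdr stood at 93.3, 123, 172 and 165 CPM, with log2 ratios of 0.40 (0.36 to 0.44), 0.89 (0.85 to 0.92) and 0.82 (0.78 to 0.86). In DCT/CNT-like cells it stood at 236, 304, 386 and 398 CPM, with log2 ratios of 0.37 (0.26 to 0.48), 0.71 (0.62 to 0.81) and 0.76 (0.66 to 0.86). The largest early difference was in S1-like cells, at 96.1, 169, 223 and 181 CPM, which is 0.81 (0.74 to 0.89) on the log2 scale at 1 h and 1.21 (1.14 to 1.29) at 4 h. S2-like cells had 90.4, 104, 158 and 152 CPM, and a log2 ratio of 0.20 (0.13 to 0.28) at 1 h. At 1 h the S1-like level was thus above the S2-like one by more than the counting error, although the segments were close at 0 h. S3-like cells had 74.8, 68.6, 82.5 and 109 CPM, with an interval excluding 0 only at 12 h (log2 ratio 0.54, 0.34 to 0.74).

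Other tubule classes did not share this pattern. TAL-like cells stayed between 55.9 and 67.7 CPM, and all 3 of their intervals included a log2 ratio of 0. IC-like cells had 97.9, 101, 96.6 and 64.6 CPM, lowest at 12 h. PC-like cells were lower at 4 h, with 37.3 CPM against 76.6 at 0 h (log2 ratio -1.04, -1.38 to -0.69), and 73.6 at 12 h. They were also lower at 1 h, with 64 Vdr UMIs of 1197449 in all, against 126 of 1645686 at 0 h. Within the distal class, the cluster led by the calcium-binding gene S100g had 392, 416, 592 and 662 CPM of Vdr, and the cluster led by the sodium-chloride transporter gene Slc12a3 had 172, 239.9, 256 and 224. The share of S100g-led cells in the class therefore bears on its mean: they were 122 of 496 cells at 0 h and 230 of 597 at 12 h. Both clusters were above their own 0 h level at 4 h, by 0.59 (0.46 to 0.73) and 0.58 (0.44 to 0.72) on the log2 scale. After thinning, 16.8%, 21.7%, 28.6% and 27.4% of PT-like cells had a Vdr UMI, against 4.52%, 2.45%, 3.44% and 2.77% of endothelial-like cells.

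**Figure D3:**
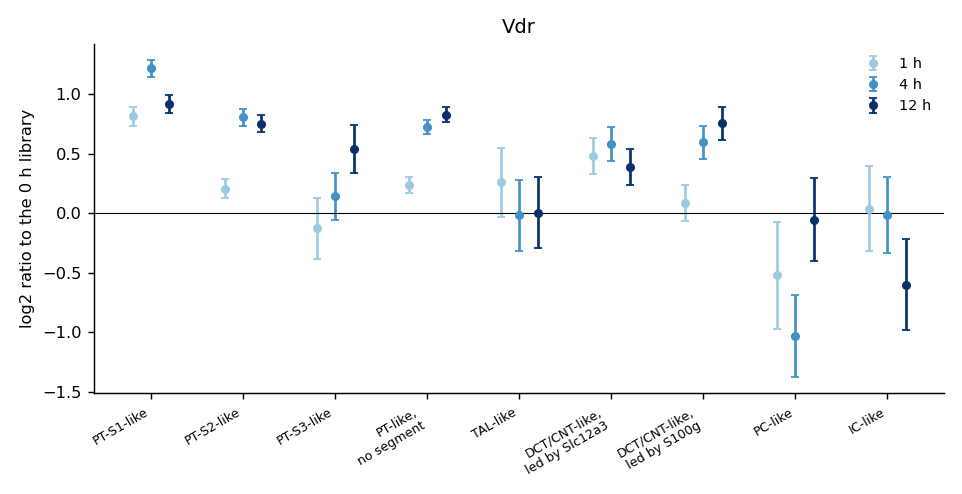
Log2 ratio of Vdr to the 0 h library in tubule cell populations at 1, 4 and 12 h, with exact binomial 95% counting intervals as bars. S1-like cells reach 1.21 at 4 h, and the DCT/CNT-like clusters lie at 0.59 and 0.58 at 4 h. TAL-like cells stay at 0 within error, and PC-like cells are lowest at 4 h.

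Rxra, the partner with which the receptor binds DNA, differed little between times. PT-like cells had 31.0, 32.9, 30.3 and 32.1 CPM, and the log2 ratios were 0.08 (0.01 to 0.16), -0.03 (-0.11 to 0.04) and 0.05 (-0.03 to 0.13). The segments drifted apart by small amounts: S1-like cells had 37.2, 38.2, 40.6 and 42.1 CPM, and S2-like cells 31.1, 30.8, 27.1 and 27.1. S3-like cells had 16.8, 17.1, 11.5 and 9.82 CPM from 90, 47, 65 and 37 UMIs. Their male-called cells had 21.9 CPM at 0 h and 8.38 at 12 h, and their female-called cells 9.02 and 7.72. Levels at 0 h were 33.4 CPM in PC-like and 24.9 in endothelial-like cells, which overlap the PT-like interval, and 10.9 to 15.5 in the TAL-, DCT/CNT- and IC-like classes. Partner and receptor therefore ranked differently, with DCT/CNT-like cells first for Vdr and among the lowest tubule classes for Rxra.

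Lrp2 encodes megalin, the large receptor that brings filtered carrier protein into the cell. Its PT-like level was near constant, at 1102, 1164, 1060 and 1166 CPM, with log2 ratios of 0.08, -0.06 and 0.08. Between 94359 and 105650 UMIs stand behind each value, so the counting intervals are narrow and a change as large as that of Vdr would have shown. S1-like cells had 1124, 1132, 1119 and 1092 CPM and S2-like cells 1107, 1166, 1011 and 1106. S3-like cells were higher, with 1452, 1632, 1360 and 1771 CPM and a log2 ratio of 0.29 (0.24 to 0.33) at 12 h. The female share of sex-called S3-like cells moved with this, at 31.1%, 47.4%, 37.4% and 54.9%. Within each sex the 12 h ratio of these cells was the other way, at -0.29 (-0.40 to -0.18) for cells called male and -0.14 (-0.21 to -0.067) for those called female. All other named classes had 6 to 47 CPM.

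**Figure D4:**
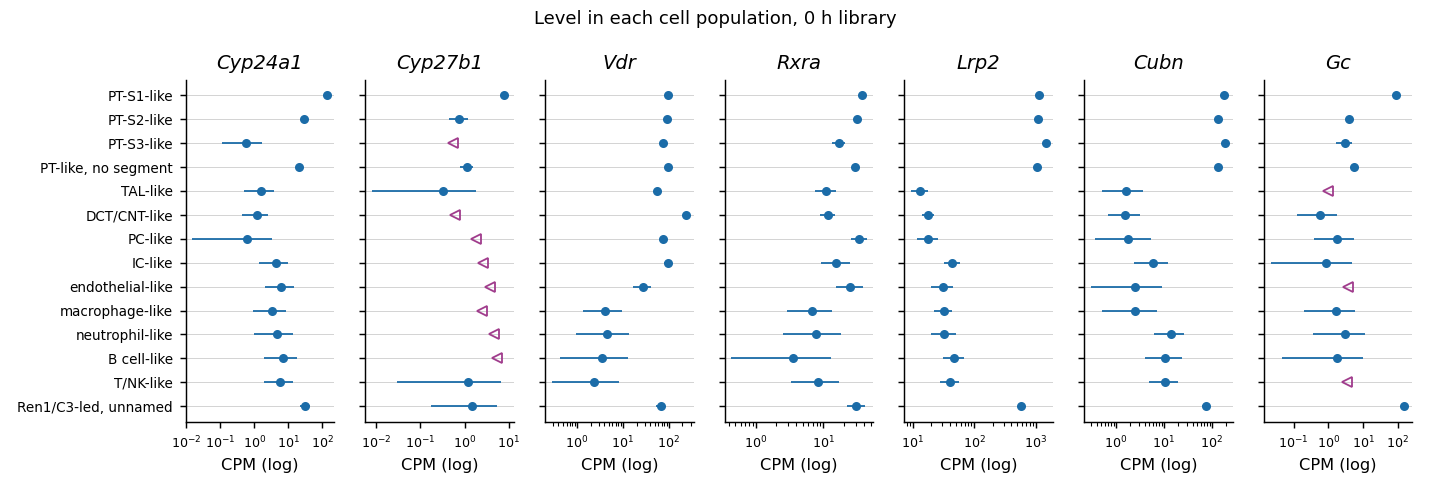
CPM (log axes) of the 7 genes in each cell population of the 0 h library. Filled points carry exact Poisson 95% intervals, and open triangles mark the limit that 0 UMIs allow. Lrp2, Cubn, Cyp24a1 and Cyp27b1 are highest in PT-like populations, Vdr in DCT/CNT-like cells, and Gc in the Ren1- and C3-led unnamed cluster and in S1-like cells.

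Cubn encodes cubilin, which works in a complex with megalin and the membrane anchor amnionless. PT-like cells had 149, 163, 148 and 184 CPM, with log2 ratios of 0.13 (0.10 to 0.17), -0.01 (-0.04 to 0.03) and 0.31 (0.27 to 0.34). The value at 12 h was the highest of the 4 libraries in each segment, at 195 CPM in S1-like, 169 in S2-like and 216 in S3-like cells, and the corresponding 0 h levels were 181, 134 and 185 CPM. The log2 ratios at 12 h were 0.11 (0.04 to 0.17), 0.34 (0.27 to 0.40) and 0.22 (0.09 to 0.36). In S3-like cells this did not hold within the sexes, where Cubn stood at 146 CPM at 0 h and 136 at 12 h in male-called cells, and at 271 and 252 CPM in female-called cells. In S2-like cells the female-called value was highest at 1 h, at 268 CPM against 264 at 12 h. The S3-like value rested on 814 of 3768677 UMIs at 12 h, against 572 of 2740738 at 1 h. Other named classes had 13.9 CPM or less.

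Gc encodes the vitamin D binding protein, a plasma carrier made chiefly by the liver. In these kidneys it was an S1 gene among the segments: S1-like cells had 86.7, 73.8, 108 and 88.6 CPM, against 3.94, 5.11, 6.52 and 9.88 in S2-like cells. S3-like cells had only 16, 2, 12 and 27 UMIs. The S1-like log2 ratios to 0 h were -0.23 (-0.33 to -0.14), 0.32 (0.24 to 0.41) and 0.03 (-0.06 to 0.12). All PT-like cells together had 24.9, 23.0, 36.1 and 34.5 CPM, a log2 ratio of 0.53 at 4 h and 0.47 at 12 h, but the mix of segments and sexes moved with it. With both weighted as at 0 h those values were 0.24 and 0.18.

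A second source of Gc was the small unnamed cluster led by Ren1 and C3, of 112 to 169 cells per library. It held 203, 427, 407 and 315 Gc UMIs, or 148, 208, 226 and 225 CPM, and 8.34% to 17.0% of the Gc UMIs of a library. Within it, 28, 33, 38 and 29 cells with at least 3 Gc UMIs held 181, 393, 382 and 288 of these. Cells with at least 2 UMIs of mural markers (33, 23, 39 and 14) were other cells of the cluster, and 1, 0, 0 and 1 cells met both criteria. The cluster thus mixed at least 2 kinds of cell, and it was given no name. It also held Lrp2 at 569 to 791 CPM and Cubn at 77.1 to 131.

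Cells were called male or female by the Xist and Y-linked transcripts, and those with both or neither got no call. Of 6561 PT-like cells at 0 h, 3071 were called male and 1379 female. At 12 h, 904 and 214 of 2337 S2-like cells were called, and 46 and 56 of 229 S3-like cells. Values by sex rest on called cells alone. Female-called cells made up 31.0%, 33.6%, 37.4% and 34.6% of sex-called PT-like cells. The sexes come from the same library at each time, but from different mice. Among the 7 genes, Gc differed most between them in S1- and S2-like cells. S1-like female-called cells had 159, 147, 196 and 177 CPM and male-called cells 35.9, 26.6, 36.9 and 37.7. The log2 ratio of female to male was 2.15 to 2.47 over the 4 libraries in S1-like cells and 4.13 to 5.90 in S2-like cells. In S2-like cells the sexes lay mostly in different clusters. Sex-called cells were 79.1% and 99.9% female in the S2-like clusters led by Hpd and Cyp4a14. They were 1.11% to 3.57% female in those led by Ugt2b37, Ces1g and Ttr. The S3-like clusters led by Cyp7b1 and Slc7a12 had 2.61% and 95.9%, and the S1-like clusters 7.41% to 53.2%. Ratios of the sexes in S2- and S3-like cells are thus also ratios between clusters, which were not separated. The uptake receptors were also higher in female-called cells. In S3-like cells Lrp2 had 2881, 2981, 2203 and 2615 CPM in female-called and 904, 824, 710 and 740 in male-called cells, a log2 ratio of 1.63 to 1.85, against 0.03 to 0.18 in S1-like cells. Cubn in S2-like cells had 219, 268, 222 and 264 CPM in female-called and 123, 126, 117 and 152 in male-called cells. For Vdr the PT-like values of the sexes were near each other, at 87.0, 130, 179 and 165 CPM in female-called and 99.9, 130, 181 and 178 in male-called cells.

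The enzymes differed between the sexes by time. In S1-like cells Cyp24a1 had 192, 879, 766 and 496 CPM in female-called cells and 113, 571, 939 and 465 in male-called cells. The female-called value was thus highest at 1 h and the male-called value at 4 h, and the log2 ratio of 4 h to 1 h was -0.20 (-0.25 to -0.15) and 0.72 (0.67 to 0.76). The difference between these was not tested. At 0 h Cyp27b1 stood at 5.62 CPM (98 UMIs) in female-called and 1.71 CPM (88 UMIs) in male-called PT-like cells, a log2 ratio of 1.72 (1.29 to 2.15). In S1-like cells alone that ratio was 0.34 (-0.17 to 0.84). The lower level after FGF23 was present in both sexes, with PT-like log2 ratios of -2.43 at 1 h, -3.97 at 4 h and -3.40 at 12 h in female-called cells and -0.71, -3.67 and -2.80 in male-called cells.

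**Figure D5:**
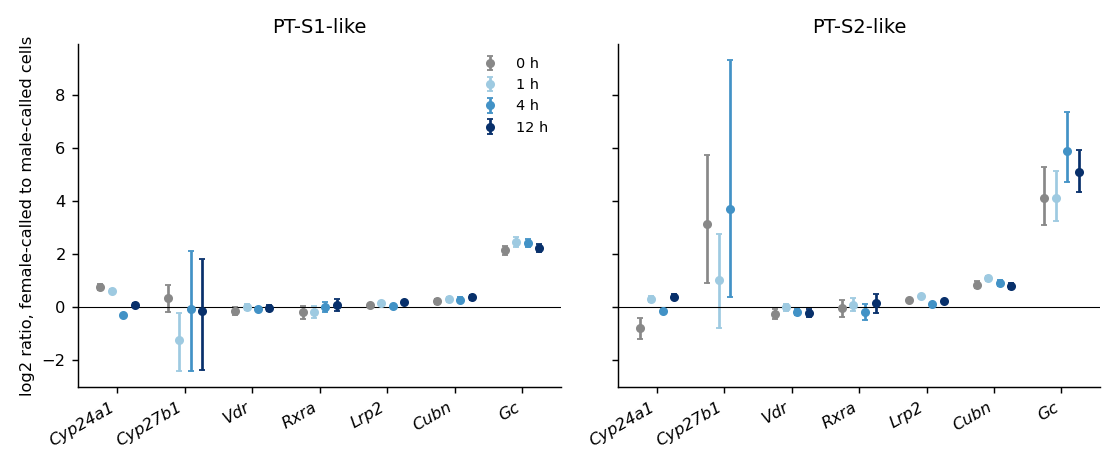
Log2 ratio of female-called to male-called cells for the 7 genes in S1- and S2-like cells at 0, 1, 4 and 12 h. Bars are exact binomial 95% counting intervals, and values with 0 UMIs in one sex are left out. Gc lies at 2.15 to 2.47 in S1-like cells and at 4.13 to 5.90 in S2-like cells, where the sexes lay mostly in different clusters.

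Other genes of vitamin D handling were read as lists, each described by the number of members at least 2-fold from 0 h among those with at least 20 UMIs. In PT-like cells, none of the 4 counted hydroxylases of 6 passed 2-fold at any time, beside 0.835%, 3.02% and 2.92% of all genes higher and 1.54%, 2.96% and 2.84% lower at 1, 4 and 12 h. Their median log2 ratios were -0.05, -0.37 and -0.24, against 0.01, 0.04 and 0.02 for all genes. Cyp27a1, a sterol hydroxylase that can also act on vitamin D, had 21.5, 20.8, 16.3 and 18.2 CPM. Neither of the 2 counted electron carriers that feed mitochondrial cytochromes P450 passed 2-fold. Fdxr, the ferredoxin reductase, had 5.89, 5.58, 7.23 and 8.25 CPM.

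The endocytic machinery around megalin and cubilin was read in the same way. None of its 10 members passed 2-fold in PT-like cells. Of all genes, 0.835%, 3.02% and 2.92% were 2-fold or more higher and 1.54%, 2.96% and 2.84% lower. With shares this small, the absence of a 2-fold member does not set the list apart. The medians were -0.00, 0.05 and 0.14, against 0.01, 0.04 and 0.02 for all genes. Amn, which encodes amnionless, had 163, 162, 211 and 199.8 CPM, and the neonatal Fc receptor gene Fcgrt 125, 125, 162 and 163. The adaptor Dab2 had 376, 377, 320 and 439 CPM. Of the 10 receptor partners and coregulators, 1 was past 2-fold, Rxrg at 12 h, with 44, 61, 79 and 96 UMIs and a log2 ratio of 1.24 (0.71 to 1.79), beside 2.92% of all genes at least 2-fold higher at 12 h. The list medians were 0.05, 0.11 and -0.05.

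Receptors for hormones upstream of the enzymes gave 1 of 6 counted members 2-fold or more higher at 4 and 12 h, beside 3.02% and 2.92% of all genes. It was the calcitonin receptor gene Calcr, from 7, 4, 24 and 13 UMIs, with an interval that included 0 at 12 h. Kl, the FGF23 co-receptor Klotho, had 209.9, 193, 129 and 124 CPM, with log2 ratios of -0.12, -0.70 and -0.76. The parathyroid hormone receptor gene Pth1r had 403, 418, 397 and 385 CPM. The list medians were -0.08, -0.08 and 0.02.

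Vitamin D receptor targets of calcium transport were read in DCT/CNT-like cells, where 1.36% of 10610 genes were 2-fold or more higher at 1 h, 3.5% of 10814 at 4 h and 2.6% of 10730 at 12 h. Of the 6 targets, 1 passed 2-fold, the calcium channel gene Trpv6 at 1 h, from 10 UMIs at 0 h and 24 at 1 h, with an interval that included 0. The medians were 0.12, 0.38 and 0.24, against -0.03, -0.05 and -0.02 for all genes. S100g, which encodes calbindin-D9k, had log2 ratios of 0.10, 0.49 and 0.54, and Calb1, calbindin-D28k, had 0.13, 0.01 and -0.51. The exchanger gene Slc8a1 had 0.00, 0.86 and 0.37. S100g, Calb1, Slc8a1 and the calcium channel gene Trpv5 also served to name this class, and the number of S100g-led cells in it differed between libraries. Among other lists in these cells, Fdxr was lower at 4 h with a log2 ratio of -1.03, as was Dab2 with -1.23 from 56 and 37 UMIs, beside 1.47%, 4.19% and 2.53% of all genes lower by 2-fold or more at 1, 4 and 12 h.

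Genes of most similar pattern were ranked by the Pearson correlation of log2(CPM + 1) over 48 values, from 12 populations in each of 4 libraries, among 13414 genes. The values share libraries, and the correlations are descriptions. For Cyp24a1 the nearest were Slc5a2 (0.88), the phosphoprotein gene Spp2 (0.88) and the organic anion transporter gene Slc22a8 (0.87), of which Slc5a2 and Slc22a8 also served as segment markers. For Cyp27b1 they were Ugt2a3 (0.85), Ccdc151 (0.85) and Cyp2c69 (0.84). Lrp2 was nearest to Spink1 (0.98), Keg1 (0.97) and the scaffold gene Pdzk1 (0.97). Cubn was nearest to Glyctk, Amn and the folate receptor gene Folr1 (each 0.96), and Gc to Fam163a (0.91), Osr2 (0.90) and Halr1 (0.90). The nearest to Vdr were Ndufa1, Gsta4 and Minos1 (each 0.93), and to Rxra Ergic1 (0.88), Apba3 (0.84) and Spr (0.83).

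Markers of other cell types were measured in the same populations. In PT-like cells the summed neutrophil markers were 12.1, 7.73, 2.21 and 1.38 CPM, and the erythroid markers 3.87, 0.143, 3.26 and 129 CPM. In DCT/CNT-like cells the erythroid markers were 285, 0, 4.22 and 179.8 CPM, and the PT markers 145, 155, 87.5 and 134 CPM. Their part in the values above was not tested. Median mitochondrial shares of PT-like cells were 21.9%, 22.0%, 15.9% and 20.7%. With a mitochondrial limit of 25% in place of 50%, the PT-like log2 ratio of Cyp24a1 was 2.35 at 1 h and 2.92 at 12 h.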

How the data were processed

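The matrices deposited by the authors give whole UMI counts for every gene in every barcode, with no normalisation. Cell Ranger 3.1.0, STAR, Seurat and the build mm10 are named in the submitters' processing notes, and the annotation used for counting is not given in the sources used here. Barcodes with under 300 genes or over 50% mitochondrial UMIs were left out. Within each library, cells near simulated doublets (30 neighbours, 0.8% per 1000 cells) were called doublets, which marked 6.91% to 8.23% of cells, and removed after clustering.

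Cells of all libraries were clustered together with scanpy 1.11.5 and leidenalg 0.10.2 (2024 genes, 30 principal components, 20 neighbours, resolution 1.5, seed 1), without the 7 genes described. The 39 clusters were named where at least 3 markers of a class were on. To be on, a marker needed 10% of a cluster's cells and 0.333 of the level in the cluster that was highest for it. A second class had to stay at 0.7 of the first or less, and at least 2 markers had to be among the top 10 genes (PT-like clusters exempt). Segments followed the same limits within PT-like clusters, and a cluster with more markers of another segment among its top 10 genes got none. These limits were chosen with the clusters in view. Unnamed cells made up 3.51% to 4.49% of a library.

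UMIs were summed per population and library and scaled to CPM, with exact Poisson intervals for levels, exact conditional binomial intervals for ratios and Clopper-Pearson intervals for shares, all at 95%. A count of 0 was read as up to 3 counts. Sex was called per cell from Xist against Y-linked UMIs, and cells with both or neither got no call. List members were counted at 2-fold where both libraries together held 20 UMIs or more, and the rule named the member with the largest ratio in each list. Other list members named were chosen after their values were seen. The programs were tested on simulated data. The genes described and the lists were chosen with earlier results of these data known. Sequences come from RefSeq (GRCm38.p6) and positions from GENCODE vM21, in which 31011 of 31053 gene IDs were found. Alternatives covered filters, doublets, scaling, weighting of cells, thresholds, sex and segment naming. The design also has a 24 h group, which was not analysed here.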

Additional observations from a re-analysis of the deposited data

Results flagged for a closer look

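Several log2 ratios had opposite signs between the sexes or between segments, with counting intervals that did not include 0, and the difference between the groups was not tested in any of them. Between 1 and 4 h, Cyp24a1 in S1-like cells had a log2 ratio of 0.72 in male-called cells, and of -0.20 in those called female. Between 4 and 12 h, Cyp24a1 in S2-like cells had -0.18 in cells called male and 0.37 in cells called female. Lrp2 at 12 h relative to 0 h in S1-like cells had -0.070 in cells called male and 0.053 in cells called female, both small.

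Segments differed in sign as well. Rxra at 12 h relative to 0 h was at 0.18 in S1-like, -0.20 in S2-like and -0.78 in S3-like cells. Gc at 1 h was at -0.23 in S1-like and 0.38 in S2-like cells. Lrp2 at 12 h was at -0.043 in S1-like and 0.29 in S3-like cells, and the female share of sex-called S3-like cells was 31.1% at 0 h and 54.9% at 12 h. Within male-called S3-like cells the Lrp2 value was -0.29, and within female-called ones -0.14.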

How the results depend on the processing

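With 1 library per group, leaving out a replicate was not an option. No paired analysis was possible because each group has 1 library. Alternatives that used the sex of the cells, the naming of segments by the highest marker level alone, leaving out clusters with Fosb among their top genes, and weighting by segment and sex were chosen after seeing the data, as were all alternatives for the 12 h to 4 h ratios by segment. Cyp24a1 stayed higher and Cyp27b1 lower than at 0 h in PT-like cells at 1, 4 and 12 h in every alternative run.

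A mitochondrial limit of 25% gave Cyp24a1 log2 ratios of 2.35 at 1 h and 2.92 at 12 h, and cells weighted equally gave 2.27 at 1 h, 3.00 at 4 h and 2.52 at 12 h. Without the clusters with Fosb among their top 10 genes they were 3.02 at 4 h and 2.63 at 12 h. Male-called cells gave 2.26, 3.43 and 3.12 at 1, 4 and 12 h, female-called cells 2.12, 2.40 and 2.10, and weighting by segment and sex as at 0 h 2.13, 2.92 and 2.51. For Cyp27b1 at 1 h, male-called cells gave -0.71 and female-called cells -2.43. Thinning to 2000 UMIs took the PT-like shares with Cyp24a1 to 8.92%, 27.3%, 45.2% and 40.4%, and those with Cyp27b1 to 0.650%, 0.277%, 0.0420% and 0.0667%.

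The Cyp24a1 ratio of 12 h to 4 h in S1-like cells was -1.01 (male-called) and -0.63 (female-called). In S2-like cells it changed sign, to 0.37 in female-called cells and to 0.091 with segments by the highest marker level alone. It was -0.18 in male-called cells, -0.0019 with the mitochondrial limit of 25% and -0.15 without those Fosb clusters. The cause of these moves was not tested. Lrp2 at 4 h also changed sign, from -0.06 to 0.0097 with the limit of 25%. The share of PT-like genes past 2-fold in either direction was 2.37%, 5.97% and 5.76% at 1, 4 and 12 h. It became 7.25%, 16.3% and 14.0% at 1.5-fold, and 0.820%, 3.12% and 2.89% with a minimum of 100 UMIs. Depth limits Cyp27b1 most, with 18 PT-like UMIs at 4 h, and every gene in S3-like cells.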
